A study of Mus musculus with 4 samples.

Results

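The genes described here are the histone genes of mouse CD4+ T cells, taken as every row of the count tables whose symbol begins with Hist1h to Hist4h, H2af, H3f3 or H1f. They numbered 84 of 23238 gene symbols, of which 68 are counted as clustered genes (Hist symbols) and 16 as replacement variants, by symbol alone. Among them Hist3h2bb-ps and H2afy3 are annotated as processed pseudogenes. RNA came from T cells of wild-type mice and of mice deficient in Pdk4 (genotype label PDK4 KO), both of strain C57BL/6j, with 2 libraries per genotype. In all 4 libraries, naive CD4+ cells had been taken from spleen and lymph nodes by magnetic sorting and stimulated with CD3, CD28 and IL-2 for 48 hours. The labels give neither the age of the mice nor the kind of Pdk4 deletion. Nor do they say that a genotype's libraries came from different mice or cultures, and the p-values therefore cover the spread of these libraries alone, which may be technical.

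Histones package DNA into nucleosomes, in which pairs of H2A, H2B, H3 and H4 form a core and H1 binds the linker. Clustered histone genes lie in tandem groups, have no introns and are transcribed mainly in S phase to supply the replicating genome. Their mRNAs normally end in a stem-loop, bound by the stem-loop binding protein Slbp, in place of a poly(A) tail. Replacement variants are made throughout the cell cycle from ordinary polyadenylated mRNAs. H3.3 marks transcribed genes, H2A.Z sits near transcription start sites, H2A.X is phosphorylated at DNA breaks and macroH2A is found in silent chromatin. T cells divide rapidly by the second day of stimulation and need both kinds of histone. The libraries were made with the Lexogen QuantSeq kit, which in its usual form primes on stretches of A and reads 3' ends. Levels are counts scaled to library size (CPM), not divided by gene length. Counts of clustered genes, whose mRNAs normally lack a poly(A) tail, need not follow mRNA amounts, which was not tested. "Rose" and "fell" stand for genes with an adjusted p under 0.05.

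Pdk4, the deleted gene, was counted 1 time in wild-type replicate 1, 0 times in wild-type replicate 2 and knockout replicate 1, and 2 times in knockout replicate 2, under the floor of 3 counts, so it could not check the genotype labels. The libraries held between 8837810 and 9739624 counts. All 12 markers of CD4 T cells had counts in every library, and among them Cd2 fell (log2 fold change -0.41) and Cd5 rose (0.29). Over all 11464 tested genes 1.45% rose and 1.21% fell. B cell markers moved with genotype, since 12 of 15 tested fell in edgeR, among them Mzb1 (log2 fold change -2.52), Fcer2a (-4.96) and Cd79b (-2.97). The summed level of the 18 listed was 327 to 365 CPM in wild type and 177 to 190 in knockout, with Pax5 at 0 throughout and Cd22 at 0 in knockout. Of 12 tested CD8 T and NK cell markers Gzma fell and 11 did not pass, with sums of 435 to 453 and 261 to 279 CPM for the 15 listed and Gzmk at 0. These sums include Gzma itself, at 219 and 219 CPM in wild type against 76.1 and 51.2 in knockout. Of 7 tested myeloid markers Fcer1g fell, with sums of 139 to 160 and 157 to 171 CPM for the 12 listed and Mpo at 0. Of 5 tested erythroid markers 0 were called in edgeR, DESeq2 or limma-voom, with 0 at an unadjusted p under 0.05 and sums of 36.2 to 172 and 68.6 to 199 CPM for the 8 of 10 listed that are in the tables. Without wild-type replicate 2 the B cell markers that fell numbered 6, and Cd5 was not called with any single library left out. The part of these cells in the histone values was not tested, and in bulk RNA fewer cells of a type and less RNA per cell cannot be told apart.

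The sequences below are shown because the most counted clustered genes, Hist1h2ap and Hist1h2ao, differ from the others in the bases just before the stem-loop. Each is the 12 bases before the stem-loop and the 16 bases of the stem-loop itself, read 5' to 3' on the gene's own strand from GENCODE vM21 transcripts (GRCm38, the assembly that mm10 names), as DNA letters. Capitals mark the longest run of A within the first 12 bases.
Hist1h2ap: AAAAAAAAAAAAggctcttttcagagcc
Hist1h2ao: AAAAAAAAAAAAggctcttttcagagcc
Hist1h2ae: AAAAAAAAcaaaggctcttttcagagcc
Hist1h2ad: tatAAAAAcaaaggctcttttcagagcc
Hist1h2ab: aaccAAAAcaaaggctcttttcagagcc
Hist1h2ac: ttcAAAcccaaaggctcttttcagagcc
Hist3h2a: acagacaccAAAggctcttttcagagcc
Hist1h1e: caacaacccAAAggctcttttcagagcc
Hist1h2bj: accAAAtccaaaggctcttttcagagcc
Hist1h3c: tatttAAAAAAAggctcttttaagagcc
Hist1h4d: ccAAAAAccaaaggcccttttcagggcc
H2afx: cacctccacAAAggcccttttaagggcc
The runs in Hist1h2ap and Hist1h2ao filled all 12 bases, and no other gene of the annotation held the same 28 bases. A stem-loop was found after the stop codon in 46 of the 68 clustered genes, and in H2afx alone among the 16 replacement variants. Of the other 22 clustered genes, 16 have no annotated 3' untranslated region, so that the sequence after the stop codon could not be searched.

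Hist1h2ap and Hist1h2ao, a pair of H2A genes in the large histone cluster of chromosome 13, gave most of the clustered histone counts, and both rose in the knockout. Hist1h2ap (ENSMUSG00000094777.2, chromosome 13, 21833026 to 21833507, GRCm38) was counted 8421 and 9673 times in the wild-type libraries (replicates 1 and 2) against 13974 and 11825 times in the knockout libraries (replicates 1 and 2). In CPM scaled by trimmed mean of M-values (TMM), it went from 989 ± 45.6 to 1357 ± 101 (SD, n = 2 each). The log2 fold change was 0.46, with SE 0.064 and an adjusted p of 1.42e-05 by edgeR's quasi-likelihood test. Hist1h2ao (ENSMUSG00000094248.1, chromosome 13, 21810465 to 21810944) was counted 4226 and 4882 times in wild type against 7035 and 5927 times in knockout. Its level went from 498 ± 24.9 to 682 ± 52.6 CPM (log2 fold change 0.45, SE 0.0714, adjusted p = 8.88e-05 by the same test). Both knockout libraries lay above both wild-type libraries for each gene. B cell markers were lower in the same knockout libraries (sums above), and their part in these values was not tested. Together the pair made up 71.7% and 71.0% of clustered histone counts in wild type against 70.0% and 74.1% in knockout.

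These rows are not independent measurements. The coding sequences of Hist1h2ap and Hist1h2ao are identical over all 393 bases, and so are the 28 bases shown above. Their counts stood in a nearly fixed ratio, with Hist1h2ap at 1.99, 1.98, 1.99 and 2.00 times Hist1h2ao in the 2 wild-type libraries and then the 2 knockout libraries. RefSeq lists Hist1h2ap as a name of 2 loci, one of which also carries the name Hist1h2ao. How the authors counted reads that match several places is not given in the sources used here. Summed into 1 row, an alternative added after seeing the data, the pair had a log2 fold change of 0.46 (adjusted p = 6.48e-06 by edgeR).

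**Figure D1:**
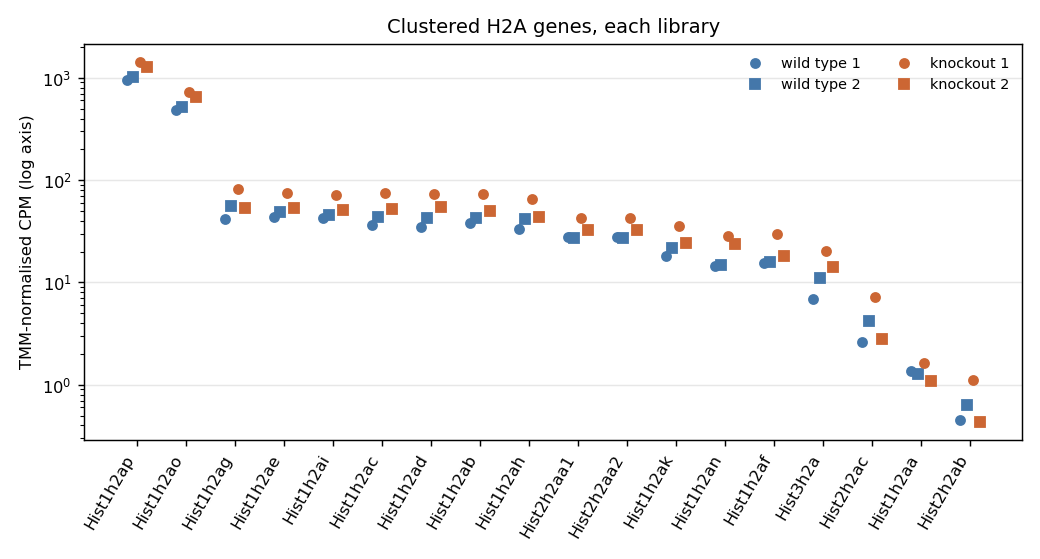
TMM-normalised CPM of the 18 clustered H2A genes in each library, on a log axis, ordered by mean level; blue points are wild type and orange points are knockout, with circles for replicate 1 and squares for replicate 2. Hist1h2ap and Hist1h2ao stand above all others at 480 CPM or more in every library, and knockout replicate 1 is the highest library for each gene.

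Further H2A genes, which encode nearly the same core histone, rose as well. Of 52 clustered genes tested, 6 rose, 0 fell and 46 did not pass. Of all 11464 tested genes 2.66% were called, 1.45% as higher and 1.21% as lower. Regardless of p, 31 of the 52 had positive and 21 negative log2 fold changes, beside 5738 and 5726 over all tested genes. All 6 were H2A genes, out of 17 H2A rows tested. The count of 6 became 2 when replicate 1 of either genotype was left out, and 4 without wild-type replicate 2. It became 10 when knockout replicate 2 was left out, and also with no filter on low counts. Only Hist1h2ap and Hist1h2ao were called whichever single library was left out.

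Hist1h2ad (chromosome 13, 23574381 to 23574952) was at 34.9 and 42.6 CPM in wild type against 73.3 and 54.7 in knockout, and rose by 0.72 on the log2 scale (SE 0.152, adjusted p = 0.00372 by edgeR). Hist1h2ac (chromosome 13, 23681467 to 23683948) was at 36.6 and 43.6 CPM in wild type against 75.2 and 52.3 in knockout, and rose by 0.67 (SE 0.156, adjusted p = 0.0102). Hist1h2ab (chromosome 13, 23751126 to 23751598) was at 37.7 and 42.7 CPM in wild type against 72.5 and 50.01 in knockout, and rose by 0.61 (SE 0.156, adjusted p = 0.0238). In these 3 genes knockout replicate 1 was far above the other libraries, while knockout replicate 2 was closer to wild type. Without knockout replicate 1 their log2 fold changes were 0.50, 0.38 and 0.31 in the order named, and none passed (adjusted p = 0.273, 0.477 and 0.588). Without wild-type replicate 1 none passed either (adjusted p = 0.121, 0.184 and 0.223). Hist1h2ab also missed the threshold without wild-type replicate 2 (adjusted p = 0.0845), under DESeq2 (0.0876) and under upper quartile scaling (0.0567).

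Hist1h2an (chromosome 13, 21786826 to 21787218) had libraries closer to each other, at 14.5 and 14.7 CPM in wild type against 28.6 and 23.5 in knockout. It rose by 0.83 on the log2 scale (SE 0.217, adjusted p = 0.0261 by edgeR), the largest change of the 6. The call was lost without wild-type replicate 1 (0.142), wild-type replicate 2 (0.16) or knockout replicate 1 (0.318) and with DESeq2 (0.0613), with values between 0.68 and 0.97 throughout. Another 9 H2A rows with a mean of at least 10 CPM did not pass, at log2 fold changes of 0.45 to 0.95 (adjusted p between 0.0697 and 0.219). Among them was Hist3h2a, the H2A gene of the small cluster on chromosome 11 (58954685 to 58956830). It was at 6.82 and 10.98 CPM in wild type against 20.1 and 14.2 in knockout (0.95, SE 0.283, adjusted p = 0.0697). Its annotated span overlaps Trim17, so reads of the 2 genes may not be separable. Hist3h2a passed with no filter (0.0243) and with the stricter filter (0.044), in which every library had at least 1 CPM.

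Among the rest of these rows, Hist1h2ah (adjusted p = 0.0796) and Hist1h2ai (0.0813) passed with no filter, with the stricter filter and when knockout replicate 2 was left out. Hist1h2ag (0.128) passed with no filter and without knockout replicate 2, and Hist1h2ae (0.101) passed without knockout replicate 2. Hist2h2aa1 and Hist2h2aa2, neighbouring copies on chromosome 3, had identical counts in every library (244, 260, 415 and 301) and count as 1 measurement. Over the 17 tested H2A rows the median log2 fold change was 0.54, beside 0.00 over all tested genes, and all 17 values were above 0. Leaving out knockout replicate 1 gave a median of 0.25, and leaving out knockout replicate 2 gave 0.80. The remaining tested rows, Hist2h2ac (0.54, adjusted p = 0.722 by edgeR) and Hist1h2aa (0.05, 0.992), overlapped between genotypes at mean levels of 4.20 and 1.34 CPM, and Hist2h2ab was too low to be tested. In 14 of the 17 rows both knockout libraries were above both wild-type libraries, where 21.5% of all tested genes had that order. The 17 rows count Hist2h2aa1 apart from Hist2h2aa2 and Hist1h2ap apart from Hist1h2ao, so they are not 17 independent measurements.

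Shared sequence limits how far these rows can be read as separate genes. Coding sequences of the other Hist1 H2A genes of equal length differed from that of Hist1h2ap at 3 to 12 of 393 positions, and that of Hist3h2a at 45. Between 14.1% (Hist1h2ac) and 90.7% (Hist1h2ah) of the 50-base windows of Hist1h2ab to Hist1h2an occurred exactly in another annotated gene. The annotated transcript of Hist1h2ac is 2482 bases long, with 2010 bases after the stem-loop. Its coding sequence differed from that of Hist1h2ap at 5 positions. How many reads of the abundant pair were counted in rows of other H2A genes was not tested, and the value of each such row is uncertain. For Hist3h2a the share was 31.5%, and the gene that shared the most windows with it was the overlapping Trim17, not an H2A gene.

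**Figure D2:**
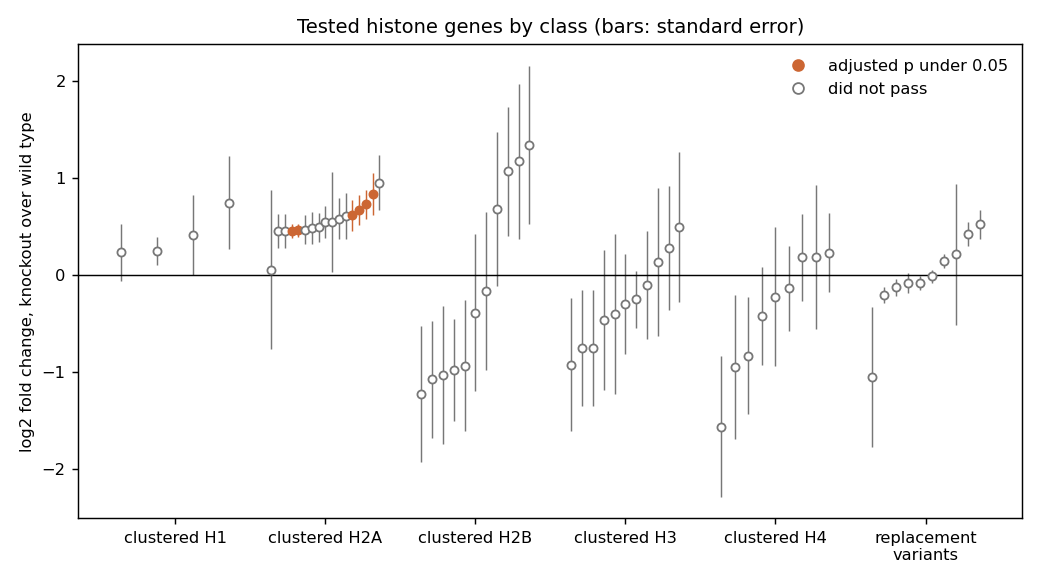
Log2 fold change of knockout over wild type for each of the 62 tested histone genes, by class, with bars of 1 standard error; filled orange points passed at an adjusted p under 0.05. All 17 H2A values are above 0 and 6 passed, while H2B, H3 and H4 values lie on both sides of 0 with wide bars.

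Clustered genes of the other classes gave few counts, and 0 of 35 tested passed in edgeR, DESeq2 or limma-voom. Of all 11464 tested genes 2.66% were called in edgeR. At an unadjusted p under 0.05 there was 1, Hist1h4f, beside 1545 of all 11464 tested genes. Hist1h4f, chosen after its values were seen, was at 16 and 42 counts in wild type against 12 and 8 in knockout (log2 fold change -1.57, SE 0.725, adjusted p = 0.329 by edgeR). The median log2 fold change of the 35 was -0.23, with 14 values above and 21 below 0. Leaving out knockout replicate 2 gave -0.0954, and leaving out wild-type replicate 2 gave -0.14. Whether H2A genes differ from the other classes in their response was not tested.

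The 4 tested H1 linker histone genes had log2 fold changes of 0.23 to 0.74. Hist1h1e, the most counted of them, was at 59.9 and 55.6 CPM in wild type against 80.9 and 55.4 in knockout (0.24, SE 0.145, adjusted p = 0.496 by edgeR). The groups overlapped, with knockout replicate 1 alone above the rest, and the value was -0.06 without that library. Its span overlaps Hist1h2be, so reads of the 2 genes may not be separable. Hist1h1d was at 4.32 and 2.43 CPM in wild type against 6.13 and 5.11 in knockout (0.74, adjusted p = 0.544), and Hist1h1b at 4.77 and 4.75 against 6.85 and 5.76 (0.40, 0.744). Hist1h1c overlapped between genotypes (0.23, adjusted p = 0.814, and -0.12 without knockout replicate 2). Hist1h1t, a testis-specific H1, had 0 counts in every library, which allows up to 0.308 to 0.339 CPM in each. Hist1h1a was too low to be tested, at 2 and 3 counts in wild type against 13 and 7 in knockout.

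Core histone genes for H2B, H3 and H4 had few counts in every library. All 19 H2B rows had mean levels of 3.99 CPM or less. Hist1h2be, with the highest mean over the 4 libraries but not the highest level in each, was at 3.52 and 7.07 CPM in wild type against 3.07 and 2.28 in knockout (-0.98, SE 0.523, adjusted p = 0.42 by edgeR). Hist1h2bj was at 6.70 and 2.43 against 2.76 and 1.52 CPM (-1.08, adjusted p = 0.452). Hist1h2bc had values in the other direction, at 1.02 and 2.01 against 3.98 and 2.39 CPM (1.06, adjusted p = 0.523). Of 11 tested H2B genes, 4 values were above and 7 below 0.

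Hist1h3c was the most counted H3 gene, at 9.09 and 14.3 CPM in wild type against 10.3 and 9.24 in knockout (-0.26, SE 0.298, adjusted p = 0.791 by edgeR). Hist1h3a had means of 4.29 and 3.47 CPM and Hist2h3b 3.71 and 3.44 (adjusted p = 0.874 and 0.967). Hist2h3c1 and Hist2h3c2 had identical counts in every library, at 24, 47, 16 and 27, and count once. The H4 genes with the highest means over the 4 libraries were Hist1h4d, with means of 5.29 ± 0.887 and 6.19 ± 1.24 CPM (n = 2 each), Hist1h4i, with 5.52 and 4.99, and Hist1h4b, with 4.75 and 5.35. None of the 3 passed (adjusted p = 0.886, 0.942 and 0.925). The genotypes overlapped in all of these H3 and H4 genes, and the sign of Hist1h3a, Hist1h3c, Hist2h3b, Hist1h4b and Hist1h4i turned when 1 library was left out. Hist4h4 is an H4 gene on chromosome 6 (136801553 to 136804415), near the replacement variant gene H2afj (136808244 to 136810074). It had 0 counts in both wild-type libraries and 7 and 5 in knockout, too few to be tested. At these levels the standard errors of H2B genes lay between 0.523 and 0.816 on the log2 scale, so changes of the size seen in Hist1h2ap were not detectable in them.

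In the H2A and H3 classes the gene with the highest level in every library also had the longest run of A before the stem-loop, among genes with a stem-loop found. Hist1h2ap and Hist1h2ao, with runs of 12, averaged 1173 and 590 CPM over the 4 libraries. The other 44 clustered genes with a stem-loop had runs of 2 to 8 and means of 0 to 63.0 CPM, and 42 of them had runs of 5 or less. Below the pair the H2A means did not follow the run, with Hist1h2ag (run of 3) at 58.2 CPM and Hist1h2ae (run of 8) at 54.9 CPM. No run could be scored for 7 of the 18 H2A genes, which have no annotated 3' untranslated region. The H3 gene with the longest run, Hist1h3c with 7 where the others scored had 4 or less, was also the most counted H3 gene. A run could be scored for 9 of the 12 H3 genes. Among H4 genes Hist1h4d had the longest run (5) and the highest mean over the 4 libraries (5.74 CPM, next Hist1h4i with 5.26), but its libraries overlapped those of Hist1h4i and Hist1h4b, and in wild type the mean of Hist1h4i was higher (5.52 against 5.29). In H1 this did not hold, since Hist1h1t had the longest run (5) and no counts, and Hist1h1e had a run of 3. All 10 H2B genes with a stem-loop had runs of 3. Hist1h2be and Hist1h2ac hold runs of 11 and 15 elsewhere in the transcript, at mean levels of 3.99 and 51.9 CPM. The part of these runs in the levels was not tested.

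**Figure D3:**
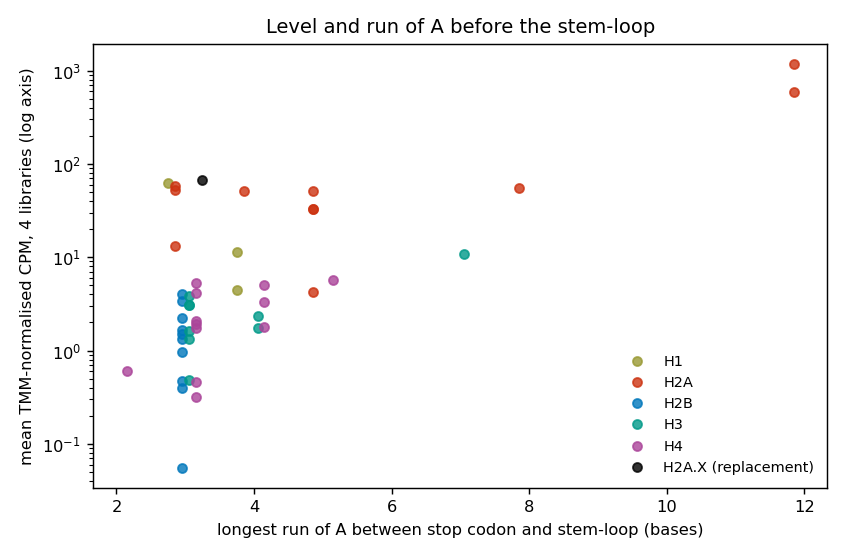
Mean TMM-normalised CPM over 4 libraries (log axis) against the longest run of A between stop codon and stem-loop, for each histone gene with a stem-loop and at least 1 count; colours mark the class, and points of different classes are set slightly apart sideways. Hist1h2ap and Hist1h2ao lie at a run of 12 with 1173 and 590 CPM, and Hist1h3c leads the H3 genes at a run of 7.

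RefSeq promoter windows (250 bases before to 50 after the start, GRCm38.p6) were matched for 76 of the 84 genes, 62 clustered and 14 replacement. The letters CCAAT, searched on both strands, occurred in 53 of the 62 clustered genes (85.5%) and in 10 of 14 replacement variants (71.4%), beside 41.1% of all genes. Among clustered genes they were present in every matched H1, H2A, H2B and H3 gene and in 3 of 12 H4 genes. The letters TATAAA, also on both strands, occurred in 35 of 62 clustered genes (56.5%) and in 1 of 14 replacement variants (7.14%), beside 15.7% of all genes. The window of Hist1h2ap at chr13:21833426-21833725 (minus strand) is shown because this gene is the most counted clustered gene, with its 3 CCAAT matches (as CCAAT or ATTGG) in capitals and no TATAAA match.
Hist1h2ap promoter: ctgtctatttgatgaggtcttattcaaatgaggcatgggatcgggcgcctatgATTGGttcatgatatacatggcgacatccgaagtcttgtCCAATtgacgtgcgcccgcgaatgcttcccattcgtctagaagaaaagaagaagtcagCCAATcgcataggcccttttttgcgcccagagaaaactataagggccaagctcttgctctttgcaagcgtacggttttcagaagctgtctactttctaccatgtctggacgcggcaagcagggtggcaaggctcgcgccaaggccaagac
A match is a description of letters and not evidence of binding.

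Summed over all members, clustered genes took 0.200% and 0.214% of the library counts in wild type (replicates 1 and 2) against 0.308% and 0.263% in knockout (replicates 1 and 2). The 95% Wilson intervals were 0.197% to 0.203%, 0.211% to 0.217%, 0.305% to 0.312% and 0.260% to 0.266%, and cover counting error only. The knockout mean was 1.38 times the wild-type mean, and the H2A genes made up 90.9% to 93.6% of the clustered counts in every library. Clustered genes other than H2A took 0.0182% and 0.0181% in wild type against 0.0197% and 0.0167% in knockout, with overlapping groups. Replacement variants took 0.218% and 0.217% in wild type against 0.225% and 0.212% in knockout, again overlapping.

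**Figure D4:**
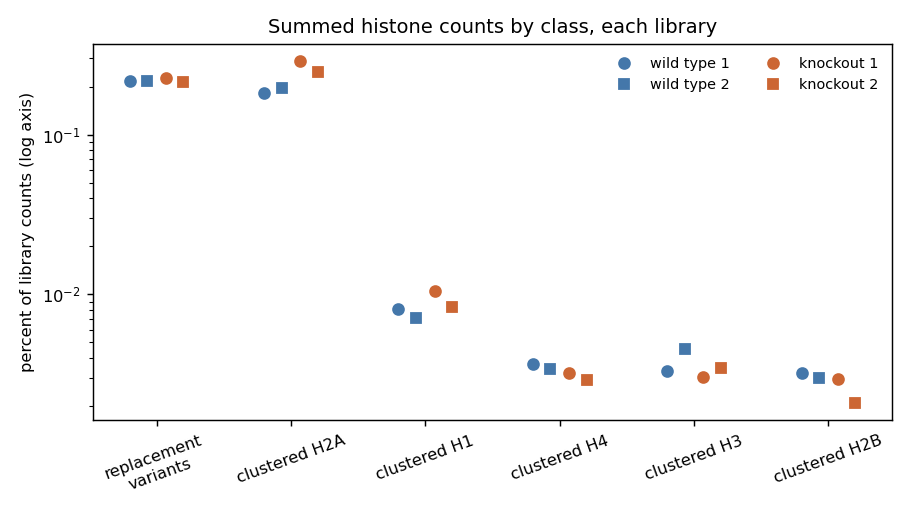
Percent of library counts (log axis) taken by replacement variants and by each class of clustered genes in each library; blue is wild type, orange is knockout, circles are replicate 1 and squares replicate 2. Only H2A and H1 have both knockout points above both wild-type points, H2A at 0.288% and 0.246% against 0.181% and 0.196%. H1 is at 0.0105% and 0.00827% against 0.00803% and 0.00715%. Both knockout points are below both wild-type points in H2B (0.002936% and 0.002076% against 0.003225% and 0.002976%). The same order is seen in H4 (0.003203% and 0.0029% against 0.003677% and 0.003425%), while H3 and the replacement variants overlap.

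Of the 16 replacement variants 10 were tested, and 0 rose and 0 fell in edgeR, DESeq2 or limma-voom, while 3 had an unadjusted p under 0.05 (H1f0, H2afx and H2afv), as did 1545 of all 11464 tested genes. H1f0 (ENSMUSG00000096210.2, chromosome 15, 79028450 to 79030504) encodes the linker histone H1.0, which accumulates in cells that leave the cell cycle. It was at 32.4 and 38.3 CPM in wild type against 50.3 and 51.0 in knockout, without overlap (log2 fold change 0.52, SE 0.152, adjusted p = 0.0618 by edgeR). H1f0 passed with no filter (0.0479) and with the stricter filter (0.0401), and with no other alternative. H2afx (ENSMUSG00000049932.3, chromosome 9, 44334694 to 44336077) encodes H2A.X and is the one replacement variant with a stem-loop, followed by a poly(A) signal. It was at 55.4 and 59.5 CPM in wild type against 81.3 and 72.2 in knockout, also without overlap (0.42, SE 0.127, adjusted p = 0.0759), and passed in 0 of 15 alternatives.

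Neither H2A.Z gene passed. H2afv was at 327 and 337 CPM in wild type against 306 and 267 in knockout (-0.21, SE 0.0804, adjusted p = 0.2 by edgeR). H2afz, which encodes the other H2A.Z protein, was at 497 and 494 against 509 and 468 CPM, with overlapping groups (-0.02, SE 0.0713, adjusted p = 0.954). Its share of the pair's counts was 60.3% and 59.5% in wild type against 62.5% and 63.7% in knockout. H2afj, a variant close in sequence to clustered H2A, was at 222 and 218 against 212 and 189 CPM (-0.13, SE 0.0871, adjusted p = 0.565).

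The genes for H3.3, H3f3a and H3f3b, encode the same protein from separate loci. H3f3b was at 466 and 470 CPM in wild type against 519 and 511 in knockout (0.14, SE 0.0698, adjusted p = 0.387 by edgeR), and H3f3a at 115 and 114 against 105 and 110 CPM (-0.09, SE 0.103, adjusted p = 0.791). H3f3b made up 80.3% and 80.5% of the pair's counts in wild type against 83.2% and 82.3% in knockout. Neither gene had overlap between the genotypes, as was so for 43.4% of all tested genes. H2afy, the main macroH2A gene, was at 468 and 463 against 454 and 426 CPM (-0.08, SE 0.0718, adjusted p = 0.688), and H2afy2, a second macroH2A gene, was near the lower limit at 3.295 and 2.01 against 1.12 and 1.41 (-1.05, SE 0.719, adjusted p = 0.579). H1fx overlapped between genotypes, at 1.02 and 2.64 against 1.23 and 3.04 CPM (0.21, adjusted p = 0.952). In order of mean level H2afz and H3f3b (both 492 CPM) and H2afy (453) came first, with overlapping libraries, then H2afv (309), H2afj (210), H3f3a (111), H2afx (67.1) and H1f0 (43.0). H2afb1, H2afb2, H2afb3 and H1fnt, known from testis, had 0 counts in every library, and H1foo and H2afy3 had 6 and 7 counts in all.

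**Figure D5:**
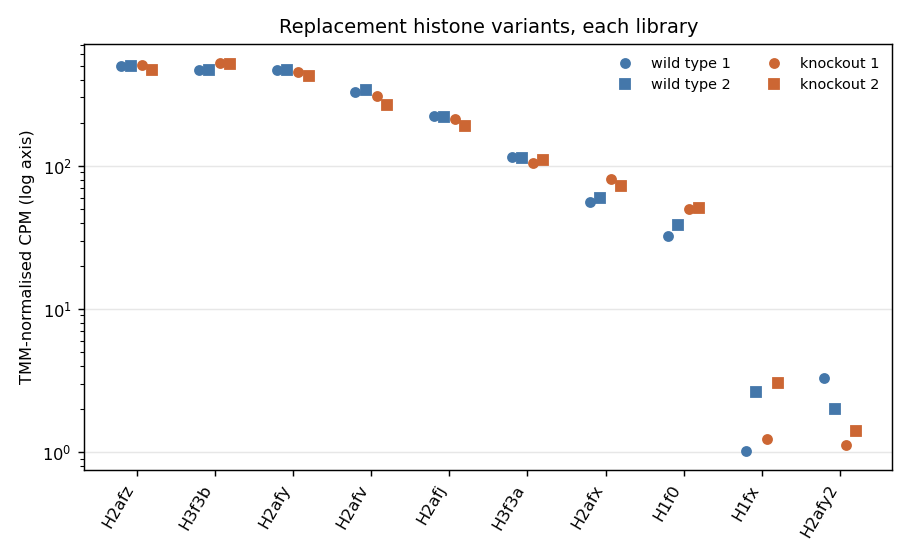
TMM-normalised CPM of the 10 tested replacement variants in each library, on a log axis, ordered by mean level; colours and symbols as for the H2A genes. Both knockout points are above both wild-type points in 3 genes (H2afx, H1f0 and H3f3b) and below them in 5 (H2afj, H2afv, H2afy, H2afy2 and H3f3a), while H2afz and H1fx overlap. Over all 11464 tested genes 21.5% had both knockout libraries above and 21.9% had both below.

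Of 23 tested genes for processing and control of histone mRNA, 0 rose and 0 fell in edgeR, DESeq2 or limma-voom, with 2 at an unadjusted p under 0.05 (Zcchc6 and Ncbp2) and a median log2 fold change of 0.02. Slbp was at 31.1 ± 3.31 and 30.1 ± 0.543 CPM (n = 2 each), and Npat, the coactivator of clustered histone genes, at 45.1 ± 9.66 and 42.5 ± 15.4 (adjusted p = 0.957 and 0.909 by edgeR). Over all tested genes 1.45% rose and 1.21% fell. Of 34 histone chaperones and exchange factors 1 rose and 0 fell, with a median of 0.00. The riser was Daxx, a chaperone that deposits H3.3, at 96.2 and 102 CPM in wild type against 135 and 139 in knockout (0.47, SE 0.102, adjusted p = 0.00518). When wild-type replicate 1 or either of the knockout libraries was left out, 0 genes of the list rose. Others with the smallest p were Yeats4 (0.28), Ipo4 (0.48), Srcap (0.53) and Hira (-0.45), none of which passed. Of 36 genes of DNA replication and S phase 0 rose and 0 fell in the 3 tools, with a median of -0.04 and 4 at an unadjusted p under 0.05, namely Rrm1 (-0.26), Ccna2 (-0.28), Orc6 (-0.47) and Mcm3 (-0.18). These counts at an unadjusted p stand beside the 1545 of 11464 over all tested genes.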

How the data were processed

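RNA of 4 libraries (2 per genotype), each from 500 ng of total RNA, was analysed from raw counts per gene symbol, which the authors deposited as 1 table per library. The names Bowtie2, edgeR and mm10 appear, per the submitters' processing notes, without a stated role. Counting tool, annotation and strand: not given in the sources used here. Counts of 35 repeated symbols were summed, and 11464 genes passed filterByExpr. The comparison of genotypes used edgeR 4.0.16 (R 4.3.3; TMM, two-sided quasi-likelihood F test, genotype as the only term, standard error as the log2 fold change over the square root of F), with Benjamini-Hochberg adjustment over all tested genes and 0.05 as the threshold. DESeq2 1.42.0 and limma 3.58.1 were alternatives, with other scalings, filters, each library left out, the ribosomal precursor Rn45s left out, and another treatment of repeated symbols.

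Named genes were all called members, the 3 most counted of each clustered class, replacement variants of at least 1 CPM, the 3 largest values each way among clustered genes reaching 5 CPM, and members whose call changed in an alternative, with called or lowest-p genes of each list. The members and lists were chosen with earlier results of these data known. All 84 symbols matched GENCODE vM21. A stem-loop was a 16-base match to the histone stem-loop consensus, sought after the stop codon. Shared windows were exact 50-base matches. Replicate numbers are not stated to pair libraries.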

Additional observations from a re-analysis of the deposited data

How the results depend on the processing

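The H2B, H3 and H4 genes had few counts in these libraries, with median standard errors of 0.709, 0.642 and 0.604 on the log2 scale. H2A genes had 0.167. Among values of named histone genes under alternatives, 469 kept direction and side of the threshold, 13 gained and 14 lost the call and 13 changed sign. With no filter 10 clustered genes rose, all H2A (10), 1 replacement variant rose and the replacement median was 0.0576, where it was -0.05. With the stricter filter 1 replacement variant rose, and with upper quartile scaling 0 CD4 markers rose. With shared rows summed, the median of clustered genes other than H2A was -0.197. H2afz was at 0.0023 with library size only. DESeq2 called 4 clustered genes and limma-voom 6. The cause of these changes was not tested.

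With 1 library left out in turn, the remaining library of a genotype is assumed to vary like the other genotype. Clustered genes that rose numbered 2 to 10, likewise H2A genes (2 to 10), chaperones that rose 0 to 1, CD4 markers that rose 0 in each case, B cell markers that fell 6 to 10, myeloid markers that fell 0 to 1 and erythroid markers that rose 0 to 3. All genes that rose numbered 70 to 114 of 166, and those that fell 62 to 103 of 139. The median of clustered genes other than H2A lay between -0.272 and -0.0954. Log2 fold changes lay between -0.58 and 1.05 for H1fx, -0.082 and 0.0384 for H2afz, -0.12 and 0.52 for Hist1h1c, -0.0595 and 0.49 for Hist1h1e, -0.60 and 0.0748 for Hist1h3a, -0.54 and 0.11 for Hist1h3c, -0.14 and 0.58 for Hist1h4b, -0.47 and 0.28 for Hist1h4i and -0.54 and 0.50 for Hist2h3b.

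The labels do not say whether same-numbered libraries share an animal, culture or batch. Their deviations from the genotype means had a correlation of 0.00284 over 11464 genes. A single value over all genes cannot decide this, as sharing may affect only some genes. With the replicate block 5 clustered genes rose, where 6 did without it and Hist1h2ab was lost (adjusted p = 0.0668 by edgeR), and 142 genes in all rose and 118 fell.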

Other observations

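Of histone-like genes outside the symbols used, Cenpa, the H3 variant of centromeres, was at 70.1 and 67.7 CPM in wild type and 58.5 and 59.1 in knockout (log2 fold change -0.23, SE 0.126, adjusted p = 0.45 by edgeR), chosen after its values were seen. Cenpa was also counted in the list of histone chaperones and exchange factors above, though it is itself a histone variant.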
